A study of Mus musculus with 12 samples.

Results

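The miRNA genes of the families miR-297, miR-466, miR-467 and miR-669, which sit together inside an intron of the mouse gene Sfmbt2, were followed through the first steps of pancreas development. All entries of the count table whose names belong to 1 of the 4 families were taken as members, both mature arms and precursors. They were 83 of the 1053 entries in the table, namely 28 of 633 mature entries and 55 of 420 precursor entries. By family, 32 members were miR-466, 19 were miR-467 and 32 were miR-669, and 0 entries of the table carried the name miR-297.

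Sfmbt2 encodes a Polycomb-group protein and is an imprinted gene, read from the paternal chromosome in the early embryo and in the placenta. One of its introns carries a rodent-specific array of miRNA genes that arose by repeated duplication, which is known for its expression in embryonic stem cells and in the placenta. A miRNA guides the silencing complex to messenger RNAs mainly through its seed, the bases near its 5-prime end, so that miRNAs with the same seed share many targets. A hairpin precursor can give a mature miRNA from its 5-prime arm (5p) or its 3-prime arm (3p), and when precursors are near-identical copies the same read can come from any of them.

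Mouse embryonic cells were sorted for small RNA sequencing, and there were 3 libraries for each of the 4 stages studied. At embryonic day E8.5 they held endoderm from whole embryos, marked by Foxa2-CreER, a Cre recombinase knocked in at the Foxa2 locus and switched on by tamoxifen injected into the mother. On the next 3 days (E9.5, E10.5, E11.5) they held cells of the trunk, labelled as pancreas and marked by the Pdx1-Cre transgene, which is active in the pancreatic and duodenal buds. In all libraries Cre turned on the red protein tdTomato, by which cells were sorted, and the males used for lineage tracing carried 1 mir-302 allele replaced by eGFP, so that the mir-302 genotype of each embryo is unknown. The step from E8.5 to E9.5 thus came with another Cre driver and another part of the embryo, and the number in the library names was common to a stage, so that any batch it marks and stage cannot be told apart. No source used here says whether the 3 libraries of a stage came from separate litters, and the p-values measure only the spread between these libraries.

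The libraries held 386094 to 594224 counts at E8.5, 53996 to 80075 in the libraries of E9.5, 133435 to 267978 in those of E10.5 and 417743 to 1103383 in those of E11.5. Levels are given as CPM, that is, counts scaled to the same library total after correction by the trimmed mean of M values (TMM), and 3 counts, taken as the floor of detection, stood for 4.34 to 7.75 CPM at E8.5, 32.0 to 75.9 CPM in the libraries of E9.5, 11.4 to 25.8 CPM in those of E10.5 and 2.74 to 6.84 CPM in those of E11.5. The endocrine and epithelial marker miR-375-3p stood at 16224 to 82362 CPM in all libraries. The hepatocyte marker miR-122-5p was at 463 to 593 CPM at E8.5 and at 38765 to 130754 CPM in the libraries labelled as pancreas.

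In the GENCODE annotation the gene Sfmbt2 spans chr2:10370510-10595253 on the plus strand of the mouse genome (mm10, assembly GRCm38.p6). RefSeq lists 81 miRNA genes named for the 4 families, of which 71 lie inside Sfmbt2 along 51.6 kb and 10 lie elsewhere. Of the 55 precursor members, 54 could be matched by name to a RefSeq gene, all of them inside Sfmbt2 between positions 10466663 and 10514971. All 54 were intronic, since 0 of them overlapped an exon of Sfmbt2 in the GENCODE annotation. The array is built of a unit in which a miR-467 gene is followed by a miR-466 gene and a miR-669 gene. This unit occurred 11 times among genes so named, with a median distance of 2454.5 bp between units (range 2413 to 4911 bp). The gene matched to mir-466c-3, Gm25285 at position 10491336, bears no such name and was not counted. It lies between Mir467a-6 and Mir669a-8, completes a further unit and falls within the longest of these distances.

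**Figure D1:**
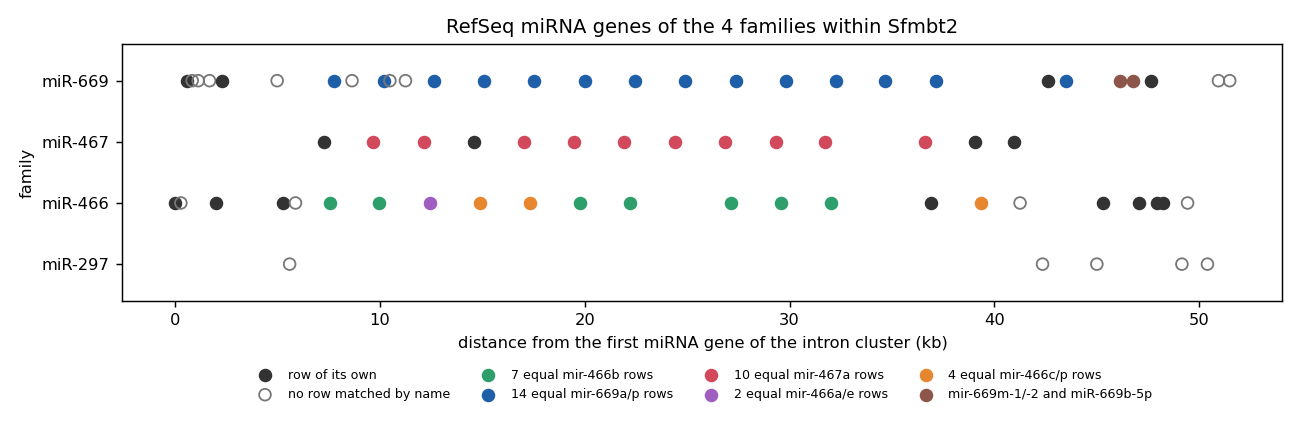
Map of the RefSeq miRNA genes of the 4 families within Sfmbt2, with the distance from the first gene in kb on the horizontal axis and 1 lane for each family. Filled circles are genes with a precursor entry in the table, colours mark precursors whose counts were equal in all 12 libraries, and open circles are genes with no entry matched by name. The 14 equal mir-669a and mir-669p entries and the 10 equal mir-467a entries are spread over the repeated units. The gene matched to mir-466c-3 (Gm25285) is not drawn, since its symbol does not name a family.

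The seeds are shown because they group the many names of the cluster by the targets they could share. The 28 mature members carried 18 different 7-letter seeds (bases 2 to 8). The seeds of the members the results turn on are given here, each with its seed, and the capitals are the seed alone.

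miR-669c-5p: UAGUUGU
miR-669o-5p: AGUUGUG
miR-669a-5p, miR-669p-5p, miR-669l-5p and miR-669f-5p: GUUGUGU
miR-466a-3p, miR-466e-3p and miR-466d-3p: AUACAUA
miR-466b-3p, miR-466c-3p and miR-466p-3p: UACAUAC
miR-467b-5p: UAAGUGC
miR-467a-5p: AAGUGCC
miR-467c-5p and miR-467d-5p: AAGUGCG

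Several of these seeds were one another moved along by 1 base. The seed of miR-669o-5p was that of miR-669c-5p shifted by 1 base, and the seed shared by miR-669a-5p, miR-669f-5p, miR-669l-5p and miR-669p-5p was shifted by 1 base more. Likewise, the seed of miR-466b-3p was that of miR-466a-3p shifted by 1 base, and the seed of miR-467a-5p was that of miR-467b-5p shifted by 1 base. In all, 11 of the 18 seeds had such a shifted partner among the members (at least 5 letters shared at a shift of 1 or 2 bases).

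Many members had identical rows. Of the 83 members, 55 (66.3%) had the same count as another entry in all 12 libraries, against 12.0% of the 970 other entries. Among members with at least 100 counts in total, 35 of 53 (66.0%) were equal to another entry, against 12 of 614 other entries (1.95%). The members held only 45 distinct rows of counts. The largest groups were 14 precursors of mir-669a and mir-669p with 111 counts each, 10 precursors of mir-467a with 29 counts each and 7 precursors of mir-466b with 495 counts each. Another 4 precursors, mir-466c-1, -2 and -3 and mir-466p, had 497 counts each and differed from the mir-466b group by at most 1 count in any library. The remaining copy, mir-466b-3, had 171 counts and a row of its own. The 7 equal mir-466b rows had 71, 1 and 159 counts at E8.5, 0, 66 and 0 in the libraries of E9.5, 1, 0 and 92 in those of E10.5 and 27, 0 and 78 in those of E11.5.

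Mature entries fell into such groups too. miR-466a-3p was equal to miR-466e-3p, miR-669a-5p to miR-669p-5p, miR-669a-3p to miR-669o-3p and miR-466c-3p to miR-466p-3p, and miR-466b-3p differed from the last pair by 1 count in 2 libraries. These entries are reported once, under the first name, and a value cannot be assigned to 1 gene of the group. A further match crossed names: the mature entry miR-467a-5p (724 counts) followed the precursor mir-467b (723 counts) within 2 counts in all libraries, and the mature entry miR-467b-5p (30 counts) followed the 10 mir-467a precursors (29 counts) within 2 counts. The mature entry miR-669b-5p was equal in all libraries to the precursors mir-669m-1 and mir-669m-2. Levels named miR-467a or miR-467b are therefore tied to the entry name used here, and not to 1 locus.

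Of all members, miR-669c-5p was by far the most abundant. It had 1119, 681 and 2031 counts in the E8.5 libraries (replicates 1 to 3), 271, 24 and 16 in those of E9.5, 559, 218 and 367 in those of E10.5 and 915, 2326 and 1275 in those of E11.5. Scaled for depth, its level was 2210 ± 635 CPM at E8.5, 1687 ± 2351 in the libraries of E9.5, 1810 ± 353 in those of E10.5 and 1916 ± 332 in those of E11.5 (mean ± SD, n = 3). The stages overlapped, and the wide spread at E9.5 came from replicate 1 at 4401 CPM beside 256 and 405 CPM in the other two.

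Among the 633 mature entries, ranked by mean CPM, miR-669c-5p was number 63 at E8.5, 80 in the libraries of E9.5, 66 in those of E10.5 and 68 in those of E11.5. With equal entries counted once, it made up 39.2% ± 9.56 of the reads of the mature members at E8.5, 33.9% ± 24.1 in the libraries of E9.5, 57.5% ± 25.7 in those of E10.5 and 60.1% ± 10.4 in those of E11.5. Its log2 fold change was -0.39 (SE 0.81) from E8.5 to E9.5, 0.10 (SE 0.81) from E9.5 to E10.5 and 0.08 (SE 0.81) from E10.5 to E11.5. Between the first and the last stage it was -0.21 (SE 0.81, 95% interval -1.89 to 1.47), with an adjusted p of 0.919 in edgeR. Both changes that involve E9.5 rested on 1 library, and the sign of all 3 changes between adjacent stages turned with the scaling of the libraries. Without E9.5 replicate 1 the change from E8.5 to E9.5 was -2.86 and passed the test (edgeR adjusted p = 0.0195, with 0.0195 to 0.960 over all alternatives). The change from E9.5 to E10.5 was then 2.57 (edgeR adjusted p = 0.0468, with 0.0468 to 1 over all alternatives). The precursor mir-669c (chr2:10509296-10509404, plus strand, intron of Sfmbt2) was the precursor member with the most reads and had 193, 6 and 358 counts at E8.5, 61, 2 and 2 in the libraries of E9.5, 4, 1 and 54 in those of E10.5 and 91, 356 and 117 in those of E11.5.

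**Figure D2:**
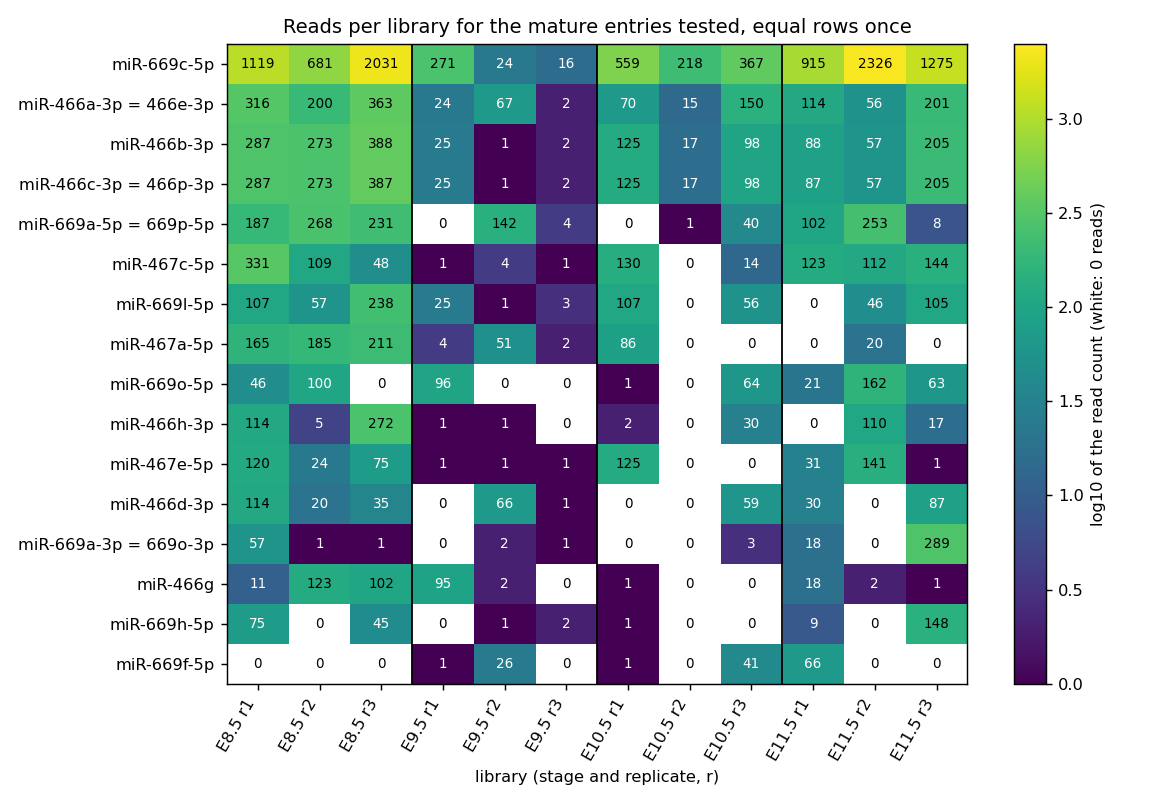
Read counts of the mature members that passed the filter on low counts, 1 row for each distinct row of counts and 1 column for each library, with colour on a log10 scale and white for 0 reads. Only miR-669c-5p has at least 16 reads in all 12 libraries, and most other rows alternate between 15 or more reads and 0 to 5 reads within a stage.

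Among mature entries whose name gives an arm, the reads of the miR-466 family were almost wholly 3p. Its 3p entries summed to 1443 ± 135 CPM at E8.5, 793 ± 658 in the libraries of E9.5, 779 ± 520 in those of E10.5 and 449 ± 216 in those of E11.5, with entries within 1 count of each other summed once. The only 5p entry, miR-466c-5p, had 5 counts in E11.5 replicate 1 and none elsewhere. Reads counted to precursors are given no arm. The 7 equal mir-466b rows had 66 counts in E9.5 replicate 2, where miR-466b-3p had 1. The use of the arms was thus not settled for this family. The leading entry, miR-466a-3p with its equal row miR-466e-3p, had 316, 200 and 363 counts at E8.5, 24, 67 and 2 in the libraries of E9.5, 70, 15 and 150 in those of E10.5 and 114, 56 and 201 in those of E11.5. All 3 E8.5 libraries, at 517 to 546 CPM, lay above the E11.5 libraries, at 51.2 to 260 CPM, while the libraries of the stages between ran up to 715 CPM. The log2 fold change from E8.5 to E11.5 was -1.52 (SE 1.19) and did not pass the test (edgeR adjusted p = 0.591).

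miR-466b-3p, whose row miR-466c-3p and miR-466p-3p shared within 1 count, had a similar total of 1566 counts. It had 287, 273 and 388 counts at E8.5, 25, 1 and 2 in the libraries of E9.5, 125, 17 and 98 in those of E10.5 and 88, 57 and 205 in those of E11.5. Its E8.5 libraries, at 496 to 705 CPM, lay above those of E9.5, at 10.7 to 406 CPM, and of E11.5, at 52.1 to 247 CPM. The log2 fold change from E8.5 to E11.5 was -1.82 (SE 1.30, edgeR adjusted p = 0.523).

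The other 3 tested miR-466 mature entries were sparse. miR-466g had 11, 123 and 102 counts at E8.5, 95, 2 and 0 in the libraries of E9.5, 1, 0 and 0 in those of E10.5 and 18, 2 and 1 in those of E11.5. Its change from E9.5 to E10.5 had the smallest adjusted p of all members in any comparison (0.0770 in edgeR, log2 fold change -8.20, SE 2.64) and rested on E9.5 replicate 1, without which the log2 fold change was -2.79 (edgeR adjusted p = 0.594, with 0.0013 to 0.594 over all alternatives). It was called when E9.5 replicate 2, E9.5 replicate 3, E11.5 replicate 2 or E11.5 replicate 3 was left out, with adjusted p from 0.0273 to 0.0490 in edgeR. Of the others, miR-466h-3p ranged from 0 to 272 counts and miR-466d-3p from 0 to 114 counts over the libraries.

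All mature entries of the miR-467 family were 5p, but some precursors held reads that these entries did not. The precursor mir-467d had 117 counts in E10.5 replicate 3 and 94 in E11.5 replicate 2, where miR-467d-5p had 10 and 0. The use of the arms was therefore not settled. The 5p entries of the family summed to 845 ± 369 CPM at E8.5, 266 ± 288 in the libraries of E9.5, 464 ± 724 in those of E10.5 and 258 ± 88.7 in those of E11.5. miR-467a-5p had 165, 185 and 211 counts at E8.5, 4, 51 and 2 in the libraries of E9.5, 86, 0 and 0 in those of E10.5 and 0, 20 and 0 in those of E11.5. The E8.5 libraries, at 285 to 478 CPM, lay above those of E11.5, at 0 to 18.3 CPM. The log2 fold change from E8.5 to E11.5 was -5.74 (SE 2.33, 95% interval -10.6 to -0.90), which did not pass the test over all entries (unadjusted p = 0.0221 and adjusted p = 0.120 in edgeR).

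For this entry the call depended on the tool. The adjusted p was 0.0220 in DESeq2 (log2 fold change -5.91), 0.00249 in limma voom (-7.12) and 0.0432 in edgeR with the libraries of E8.5 and E11.5 alone (-5.65). Over all alternatives it ran from 0.00249 to 0.250. Without E11.5 replicate 2 it was 0.0400 in edgeR (-9.90), where the E11.5 stage was left with no counts and the fold change is no bound. The precursor mir-467b (chr2:10481248-10481320, plus strand, intron of Sfmbt2) held nearly the same counts and is not a second measurement.

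miR-467c-5p had 331, 109 and 48 counts at E8.5, 1, 4 and 1 in the libraries of E9.5, 130, 0 and 14 in those of E10.5 and 123, 112 and 144 in those of E11.5. Its E9.5 libraries, at 16.2 to 42.7 CPM, lay below those of E8.5, at 69.4 to 572 CPM, yet 3 counts stood for 32.0 to 75.9 CPM at E9.5, so that the depth there hardly separates these levels. The log2 fold change from E8.5 to E9.5 was -3.41 (SE 1.81, edgeR adjusted p = 0.271). miR-467e-5p ranged from 0 to 141 counts over the libraries, and neither miR-467b-5p nor miR-467d-5p passed the filter.

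The miR-669 family held most of the reads of the mature members, mainly in its 5p entries. Its precursors held further reads with no arm given, so that the use of the arms was not settled. The precursor mir-669l had 28 counts in E9.5 replicate 2, where miR-669l-5p had 1. Its 5p entries summed to 3105 ± 499 CPM at E8.5, 3032 ± 2990 in the libraries of E9.5, 2214 ± 333 in those of E10.5 and 2336 ± 358 in those of E11.5, and its 3p entries to 42.8 ± 70.7, 15.5 ± 13.6, 3.90 ± 6.75 and 130 ± 190 CPM. After miR-669c-5p came miR-669a-5p with its equal row miR-669p-5p, which had 187, 268 and 231 counts at E8.5, 0, 142 and 4 in the libraries of E9.5, 0, 1 and 40 in those of E10.5 and 102, 253 and 8 in those of E11.5. Its 3 libraries at E8.5 (323 to 692 CPM) lay above those at E11.5 (9.62 to 233 CPM), while the E9.5 libraries ran from 0 to 1516 CPM. From E9.5 to E10.5 the log2 fold change was -3.28 (SE 1.81, edgeR adjusted p = 0.317), but -0.032 without E9.5 replicate 2 and -7.12 without E10.5 replicate 3.

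miR-669l-5p had 107, 57 and 238 counts at E8.5, 25, 1 and 3 in the libraries of E9.5, 107, 0 and 56 in those of E10.5 and 0, 46 and 105 in those of E11.5. miR-669o-5p had 46, 100 and 0 counts at E8.5, 96, 0 and 0 in the libraries of E9.5, 1, 0 and 64 in those of E10.5 and 21, 162 and 63 in those of E11.5. Both entries thus had a library with 0 counts at a stage where another library had 100 or more.

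A further 3 tested miR-669 rows had most of their reads in a few libraries. Of the 372 counts of miR-669a-3p (equal to miR-669o-3p), 289 were in E11.5 replicate 3 and 57 in E8.5 replicate 1. miR-669h-5p had 148 counts in E11.5 replicate 3 and at most 75 in any other library. miR-669f-5p had 0 counts in all 3 E8.5 libraries, 26 in E9.5 replicate 2, 41 in E10.5 replicate 3 and 66 in E11.5 replicate 1, and at most 1 count in each of the other libraries. Its mean at E9.5 was at least 17-fold higher than the mean 3-count floor of the E8.5 libraries, and its mean at E11.5 at least 8.71-fold higher, each resting on 1 library. Neither comparison passed the test (edgeR adjusted p = 0.175 and 0.149).

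This unevenness was general among the members. In the 16 distinct mature rows tested, with 192 values in 12 libraries, 41 values were 0, 38 were 1 to 5, 4 were 6 to 14 and 109 were 15 or more. The 278 other mature entries tested with totals from 135 to 9802 counts were divided much alike. Of their 3336 values, 676 were 0, 656 were 1 to 5, 150 were 6 to 14 and 1854 were 15 or more. Of the 55 cases in which an entry had at least 15 counts in a library of a stage, 31 (56.4%) had at most 2 counts in another library of that stage. For the 278 other mature entries this share was 37.5%. They were not matched to the members on total within the range, where all members but miR-669c-5p ended at 1578 counts. The relation of this share to abundance, depth, PCR or the sharing of reads between copies was not tested.

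The number of mature members with at least 1 count was 18 to 25 in the E8.5 libraries, 14 to 20 in those of E9.5, 8 to 17 in those of E10.5 and 16 to 19 in those of E11.5. When each library was thinned to 53996 counts, the expected number was 16.1 to 23.5 at E8.5, 13.4 to 17.1 in the libraries of E9.5, 6.81 to 16.0 in those of E10.5 and 13.4 to 16.9 in those of E11.5. The lowest of these, 8 members before and 6.81 after thinning, was E10.5 replicate 2.

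Summed over all 28 mature members, the level was 7784 ± 155 CPM at E8.5, 5879 ± 4463 in the libraries of E9.5, 4516 ± 1705 in those of E10.5 and 3995 ± 541 in those of E11.5. The order of E8.5 and E9.5 in this sum turned with the scaling, since RLE size factors gave 6942 and 7639 CPM. Since equal entries enter such a sum more than once, the sum was also made over the 22 rows left when entries within 1 count of each other were counted once. It was then 5652, 5296 and 5841 CPM in the E8.5 libraries, 8834, 4165 and 885 in those of E9.5, 4598, 2156 and 3631 in those of E10.5 and 3510, 3006 and 3061 in those of E11.5. The E8.5 libraries lay above those of E11.5 without overlap (38.5% of single entries did not overlap between these stages), and the E9.5 libraries spanned the values of all other stages.

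Without miR-669c-5p the remaining 21 rows summed to 3386 ± 426 CPM at E8.5, 2941 ± 2147 in the libraries of E9.5, 1652 ± 1193 in those of E10.5 and 1277 ± 349 in those of E11.5. The difference between E8.5 and E11.5 thus lay mostly in the other members, and the mean of miR-669c-5p itself differed by less than its spread at E8.5. No test was made of these sums. In bulk samples fewer cells that express a miRNA and less of it per cell cannot be told apart.

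**Figure D3:**
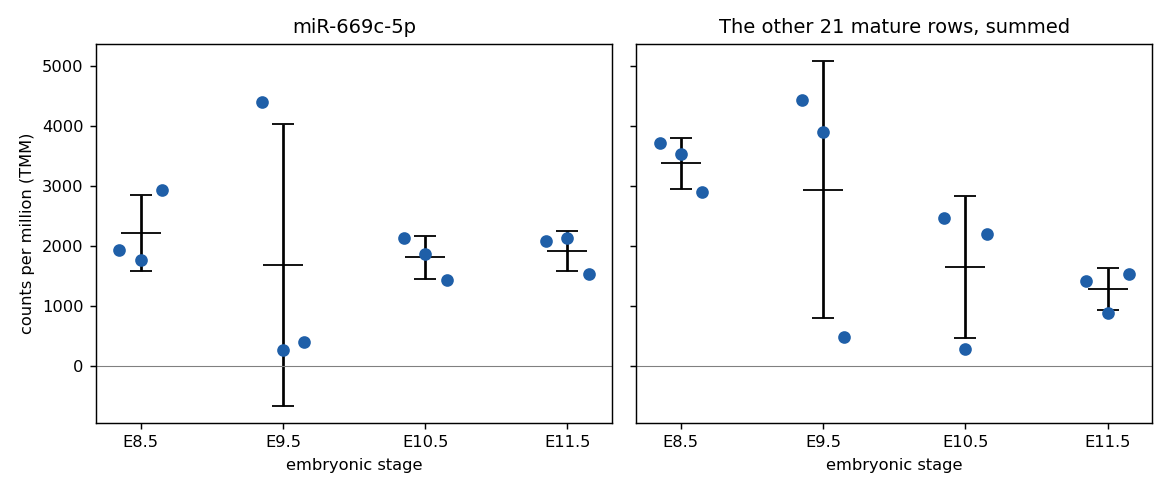
Level in CPM of miR-669c-5p (left) and of the other 21 mature rows summed (right) by stage, with points for the 3 libraries, a long horizontal mark for the mean and bars for the SD. The miR-669c-5p means lie between 1687 and 2210 CPM, while the sum of the others is 3386 CPM at E8.5 and 1277 CPM at E11.5.

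Some marker lists of other cell types differed between E8.5 and E11.5, while the ranges of the mesenchymal, erythroid, leukocyte and neural lists overlapped. The endothelial list (2 of 2 entries in the table) summed to 1821 to 2281 CPM in the E8.5 libraries and 34.2 to 423 CPM at E11.5, and the muscle list (3 of 3) to 6286 to 26546 and 280 to 1711 CPM. The mesenchymal list (4 of 4) was at 6714 to 13171 and 3626 to 7604 CPM, the erythroid list (2 of 3) at 158 to 713 and 326 to 657 CPM, the leukocyte list (2 of 4) at 0 to 59.3 and 0 to 1.20 CPM, and the neural list (2 of 2) at 46.5 to 372 and 1.20 to 245 CPM. The pluripotency list (6 of 6) was at 36234 to 63884 and 375 to 737 CPM, and the epithelial and pancreatic list (5 of 5) at 24645 to 28158 and 63416 to 97857 CPM. At E9.5 the leukocyte list was at 10.7 to 2655 CPM, the muscle list at 5278 to 26855 CPM and the endothelial list at 32.5 to 406 CPM. The mesenchymal list was there at 1388 to 4956 CPM, the erythroid list at 32.5 to 331 CPM and the neural list at 0 to 363 CPM. The part of these cell types in the levels of the members was not tested.

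The test over all entries asked whether single members differed between stages. The filter kept 38 members, 20 mature and 18 precursors, among 571 entries, and a member is called here when its Benjamini-Hochberg adjusted p in the quasi-likelihood test of edgeR was under 0.05. From E8.5 to E9.5, 0 of the 38 members were called, against 5.60% of all entries tested. At an unadjusted p under 0.05 there was 1 member, miR-669f-5p, against 20.0% of all entries. The values of the 2 stages did not overlap for 8 members, all lower at E9.5, against 34.3% of all entries. The mature entries among them were miR-467c-5p, miR-467e-5p and the 3 rows of miR-466b-3p, miR-466c-3p and miR-466p-3p. The precursors were mir-466d and the equal rows mir-466a and mir-466e. At E9.5 these precursors and miR-467e-5p had at most 1 count in any library, and miR-467c-5p at most 4. With the floor at 3 counts, depth limits these differences. DESeq2 called 0 of the 28 members to which it gave an adjusted p (background 20.7% of 382 such entries), and limma voom called 0 of 38 (background 2.98%). At an unadjusted p under 0.05 there were 3 members in DESeq2 and 6 in limma voom, against 25.8% and 19.8% of the entries with a p in these tools. With TMM scaling the median log2 fold change in this comparison was -0.84 over the whole table and -0.42 over the members, or -0.67 with equal rows once. Leaving out E9.5 replicate 1 gave 1 call, miR-669c-5p.

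From E9.5 to E10.5, edgeR called 0 members, against 4.38% of all entries, and 1 member, miR-466g, had an unadjusted p under 0.05, against 18.2%. Libraries did not overlap for 2 members, the equal precursor rows mir-466a and mir-466e, which were higher at E10.5 (background 15.8%). These rows had 1, 0 and 0 counts at E9.5 and 56, 2 and 40 at E10.5. The median log2 fold change was -0.97 for the members and 0.17 for all entries. DESeq2 called miR-466g alone of the 30 members with an adjusted p (background 16.9% of 402 such entries), and limma voom called 0 members (background 0.175%). At an unadjusted p under 0.05 there were 3 and 0 members, against 21.1% and 9.11% of entries.

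From E10.5 to E11.5, edgeR called 0 members, against 0.350% of all entries, and 0 members had an unadjusted p under 0.05, against 10.7%. There were 0 members whose libraries did not overlap (background 13.5%). The median log2 fold change was -1.02 for the members, a value that equal precursor rows enter repeatedly, and -0.28 with equal rows once, beside 0.07 for all entries. DESeq2 called 0 of 37 members (background 1.51% of 531 entries with an adjusted p) and limma voom 0 of 38 (background 0.525%). At an unadjusted p under 0.05 there were 2 members in each, against 12.1% and 11.0% of entries.

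From E8.5 to E11.5, edgeR called 0 members, against 11.6% of all entries. At an unadjusted p under 0.05 there were 3 members, miR-467a-5p, its counterpart mir-467b and miR-669f-5p, against 23.3% of all entries. Libraries did not overlap for 11 members, all lower at E11.5, against 38.5% of all entries. They were miR-466a-3p and miR-466e-3p, the 3 rows of miR-466b-3p, miR-467a-5p, miR-669a-5p and miR-669p-5p, miR-669l-5p and the precursors mir-467b and mir-466d. The fitted value was below 0 for 33 of 38 members, or for 20 of 24 with equal rows once, with a median of -1.19 and of -1.35, beside a median of -0.07 for all entries. DESeq2 called 2 of 37 members (miR-467a-5p and mir-467b, background 17.7% of 531 entries with an adjusted p), and limma voom called 5, adding mir-466a, mir-466d and mir-466e (background 25.7%). The 4 comparisons share libraries and are not independent of each other.

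The members were measured less precisely than the table as a whole. The median SE of a log2 fold change from E8.5 to E11.5 was 2.20 for the members and 1.67 for all entries, and the smallest change that was called for any entry was 0.90. A member that had changed by the median of the members would thus lie within 1 SE of no change.

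**Figure D4:**
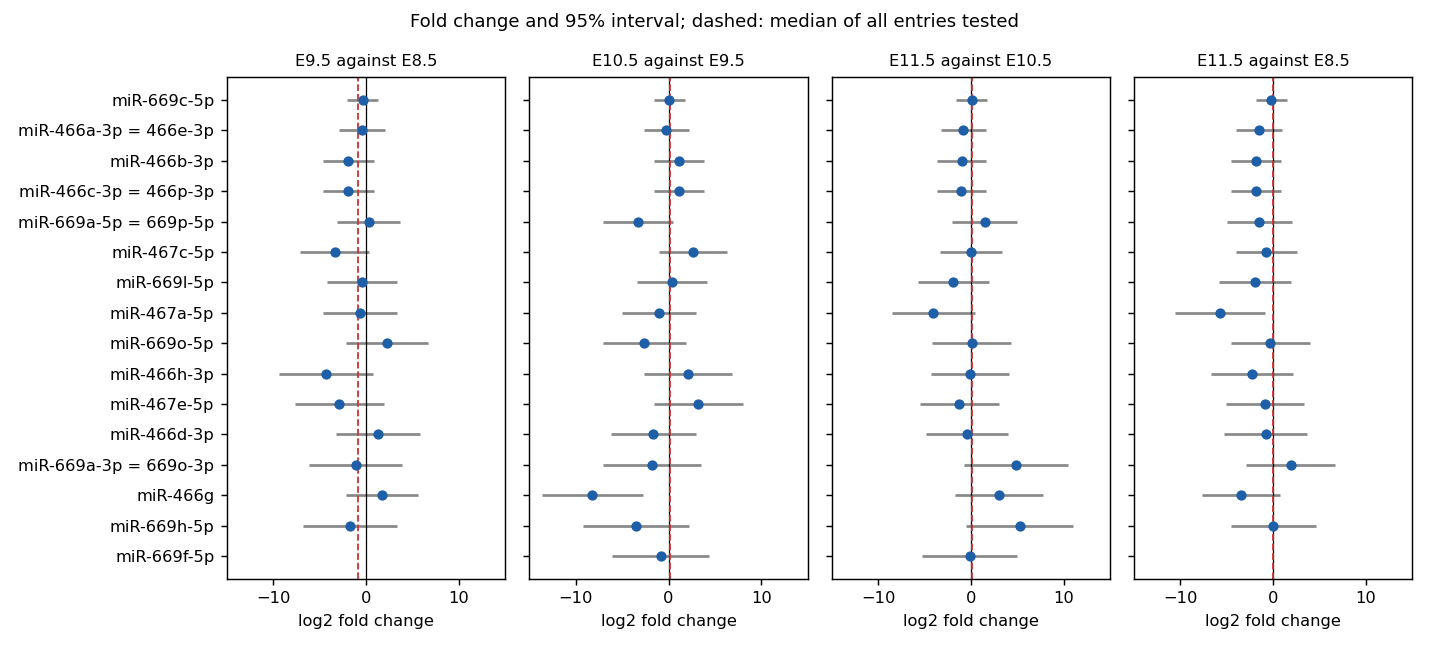
Log2 fold change (points) from edgeR and 95% interval derived from its test (lines) for the 16 distinct mature rows tested. The 4 comparisons are side by side, and the median of all 571 entries is dashed. miR-669f-5p is left out where a stage had no reads, and among the intervals drawn only those of miR-466g from E9.5 to E10.5 and of miR-467a-5p from E8.5 to E11.5 leave out 0.

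Part of a seed links the cluster to the miRNAs of pluripotent cells. No member had the same whole seed, bases 2 to 8, as any of the 5 entries listed below. The letters AAGUGC in bases 2 to 7 are the seed core of the miR-290 cluster and of miR-302, which hold embryonic stem cells in cycle and are silenced as cells differentiate, and they are also in the seeds of miR-467a-5p, miR-467c-5p and miR-467d-5p and, 1 base later, of miR-467b-5p. The RefSeq table held 5 non-member entries of the count table with this core, shown here in full because the members are set beside them. A further miR-302 entry of the count table, miR-302a-3p, was not among them. Capitals mark the seed, bases 2 to 8, in the assembly GRCm38.p6.

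miR-291a-3p (chr7:3218968-3218989, plus strand): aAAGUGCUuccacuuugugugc
miR-294-3p (chr7:3220691-3220712, plus strand): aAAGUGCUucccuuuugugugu
miR-295-3p (chr7:3220815-3220837, plus strand): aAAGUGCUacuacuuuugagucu
miR-302b-3p (chr3:127545275-127545297, plus strand): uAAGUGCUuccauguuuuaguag
miR-302d-3p (chr3:127545665-127545687, plus strand): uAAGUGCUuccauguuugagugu

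These 5 entries summed to 44412 ± 11965 CPM at E8.5, 8098 ± 3145 in the libraries of E9.5, 1271 ± 675 in those of E10.5 and 497 ± 187 in those of E11.5. Of the 5, edgeR called 2 lower from E8.5 to E9.5, 2 lower from E9.5 to E10.5, 0 from E10.5 to E11.5 and all 5 lower at E11.5 than at E8.5. Over the whole period miR-302b-3p had a log2 fold change of -6.77 (SE 0.65, edgeR adjusted p = 1.5e-07) and miR-302d-3p one of -6.32 (SE 0.81, edgeR adjusted p = 7.1e-06). For miR-295-3p it was -9.32 (edgeR adjusted p = 0.00345), for miR-291a-3p -8.16 (edgeR adjusted p = 0.0299) and for miR-294-3p -4.24 (edgeR adjusted p = 0.0410). miR-294-3p fell from E9.5 to E10.5 as well (log2 fold change -7.26, SE 1.59, edgeR adjusted p = 0.00852). As the embryos carried an unknown number of intact mir-302 copies, the miR-302 levels bear that limit.

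The 4 members with this core summed to 1013, 770 and 374 CPM in the E8.5 libraries, 81.2, 587 and 75.9 in those of E9.5, 822, 0 and 93.5 in those of E10.5 and 280, 121 and 173 in those of E11.5. Their share of all reads of the 9 entries, without miR-302a-3p, was 1.54% ± 0.328 at E8.5, 2.73% ± 2.63 in the libraries of E9.5, 22.6% ± 34.6 in those of E10.5 and 28.2% ± 10.3 in those of E11.5. The non-members were taken by bases 2 to 7, while the member miR-467b-5p has the core 1 base later. Non-members with such a shifted core were not sought and are not in this share. All E11.5 libraries, at 19.6% to 39.7%, lay above all E8.5 libraries, at 1.20% to 1.85%. The mean CPM of the members was lower at E11.5 than at E8.5, as was that of the miR-290 and miR-302 entries. Among the members, miR-467c-5p held most of these reads at E11.5 (185 ± 89.6 CPM), and miR-467a-5p had counts in 1 of the 3 libraries. Most reads of these 9 entries at E11.5 still lay outside the cluster, with miR-302b-3p alone at 262 CPM.

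**Figure D5:**
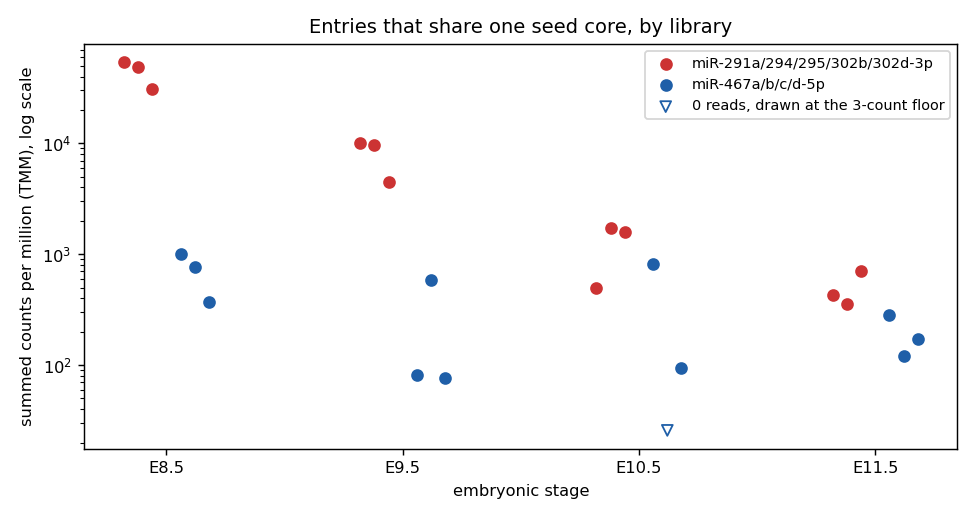
Summed CPM on a log axis, by stage, of the 5 listed miR-290 and miR-302 entries with the seed core (red, without miR-302a-3p) and of the 4 miR-467 members that contain it (blue), 1 point for each library. The red points fall from 30931 to 53772 CPM at E8.5 to 356 to 710 CPM at E11.5, the blue ones lie at 374 to 1013 CPM and at 121 to 280 CPM, and the open triangle is a library with 0 reads drawn at its 3-count floor.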

How the data were processed

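Small RNA was sequenced from 12 libraries of sorted mouse embryonic cells. The values deposited by the authors were unnormalised read counts, in 1 table with miRNA entries as rows and libraries as columns. Per the study's methods and the file headers, adapters and random bases were trimmed, reads of 17 to 35 bases (36 in 2 libraries) were kept and aligned to mm10 with STAR in the COMPSRA pipeline, and mature and precursor entries were counted separately. The random bases were not used to count molecules, so counts are reads after PCR, and floors cover counting error only. How reads with several matches were assigned is not given in the sources used here.

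Differences between stages were tested by quasi-likelihood in edgeR 4.0.16 (R 4.3.3) in 1 fit of all 12 libraries with stage as the factor, TMM factors, filterByExpr (minimum count 10, minimum total 15), a prior count of 0.125 and Benjamini-Hochberg adjustment over 571 entries. The common biological coefficient of variation was 1.19. The script was tested on simulated data. CPM were computed from the deposited counts. DESeq2 1.42.0, limma 3.58.1, other scalings and filters and the omission of each library were alternatives. Members and lists were chosen with earlier results of these data known. Named with values were mature members that passed the filter, members called in any comparison, the 5 precursors with the highest mean CPM and entries with the AAGUGC core that were called. miR-466g, miR-669f-5p and the precursors that did not overlap were singled out from their values. Seeds were read from the study's seed list, and other sequences and the positions of miRNA genes from RefSeq GRCm38.p6. The span and exons of Sfmbt2 and the strands of member genes came from GENCODE. Of the 18 same-numbered library pairs, 2 correlated above 0.1 (range -0.134 to 0.125). Of the 36 differently numbered pairs, 3 did (range -0.152 to 0.137). Numbers were therefore not used to pair libraries in the main fit, though such correlations cannot exclude a pairing.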

Additional observations from a re-analysis of the deposited data

How the results depend on the processing

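The alternatives left some statements about the members as they were and moved others. The count of members called from E10.5 to E11.5 was 0 under every alternative, and from E8.5 to E9.5 it was 0 under the 11 alternatives other than the omission of single libraries. From E9.5 to E10.5 it was 1 with no filter beyond 1 count and 1 with DESeq2. From E8.5 to E11.5 it was 2 with DESeq2, 5 with limma voom and 2 when the other 2 stages were left out. When each library was left out in turn, the counts ran from 0 to 1 (E9.5 against E8.5), 0 to 1 (E10.5 against E9.5), 0 to 0 (E11.5 against E10.5) and 0 to 2 (E11.5 against E8.5). In this order, the count differed from the main fit in 1, 5, 0 and 1 of the 12 fits. The fit with a replicate block gave 0 members in each of the 4 comparisons, and it called 26, 22, 3 and 61 of all entries beside 32, 25, 2 and 66 without the block.

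The direction of miR-669c-5p is not settled. From E8.5 to E9.5 its log2 fold change was 0.13 with RLE size factors, 0.13 with DESeq2 and 0.10 with the 2 stages alone. From E9.5 to E10.5 it was -0.31 with RLE, -0.31 with DESeq2, -0.12 with the 2 stages alone, -0.048 with identical rows collapsed and -0.17 without mir-6236 and mir-6240, and from E10.5 to E11.5 it was -0.15, -0.15 and -0.013 with RLE, DESeq2 and the 2 stages alone. Leaving out libraries gave -2.86 to 0.33, -0.56 to 2.57, -0.069 to 0.25 and -0.36 to 0.054 in the 4 comparisons. The log2 fold changes of miR-466a-3p, miR-466b-3p and miR-467a-5p from E8.5 to E11.5 were below 0 under all alternatives.

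The sum of the mature members at E8.5 was 6942 CPM with RLE, 8503 with library size alone, 11010 with precursors added and 5596 with entries within 1 count summed once (an alternative chosen after seeing the data). At E9.5 it was 7639 CPM with RLE and 7251 without mir-6236 and mir-6240, so that with RLE it lay above E8.5. At E10.5 it was 6551 CPM with precursors added. At E11.5 it was 3317 with RLE, 5398 with precursors added and 3192 with such entries once. Leaving out libraries gave 7161 to 7899 CPM for E8.5, 3687 to 8689 for E9.5, 3774 to 5460 for E10.5 and 3861 to 4199 for E11.5. Of the 5 listed entries with the AAGUGC core, 1 was called with RLE from E8.5 to E9.5. From E8.5 to E9.5 all entries had a median log2 fold change of -0.84 with TMM, -0.21 with RLE and -1.10 with library size alone, and the causes of these shifts were not tested. Depth limits the E9.5 values most.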
